A study of Pimephales promelas with 20 samples.

Results

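The comparison of 29 ng/L phenanthrene with 0 ng/L in the liver of female fathead minnows (Pimephales promelas) rested on 5 arrays labelled 29 ng/L, with title numbers 22 to 26, and 5 arrays labelled 0 ng/L with no agent, numbered 3 to 7. They were chosen by their dose labels from 20 arrays, and the other 10 held livers at 287 and 1006 ng/L. The fathead minnow is a small North American freshwater fish used widely in aquatic toxicology. Every exposure lasted 48 h; RNA taken with Trizol carried the single dye Cy3. Neither age, nor strain, nor the number of fish behind an array is stated in the labels. Since no label says that the arrays came from separate fish, p-values here cover only how these arrays varied, and that variation may be technical. Whole liver was sampled, so fewer cells of a type and less RNA per cell cannot be told apart.

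Phenanthrene is a polycyclic aromatic hydrocarbon found in crude oil and in combustion residues. Fish take such compounds up through the gills, and the liver oxidises them with cytochrome P450 enzymes, couples the products to polar groups and passes them into bile. The aryl hydrocarbon receptor is the ligand-activated factor through which many polycyclic aromatic hydrocarbons raise transcription of the cytochrome P450 1 genes, and phenanthrene is known as a weak activator of it. The female liver is also the site of synthesis of egg yolk precursor proteins. Probes for these genes could not be picked out with the files used here, because the array names its probes by sequence numbers. Of these names, 0 were found among 64593 annotated fathead minnow genes, searched by symbol and by gene, transcript and protein identifiers. Whether another source could resolve the sequence numbers was not tested. The labelled tissue could not be checked against liver markers for the same reason, and no probe sequence is printed because the files used here hold none. Results are therefore given by number, size and direction, and 4 probes by their array identifiers.

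No probe differed between 29 and 0 ng/L after adjustment. Of the 15208 probes for fish sequences, 9654 (63.5%) were well above background on at least 4 of the 5 arrays of either group and were tested. With limma's moderated test and Benjamini-Hochberg adjustment 0 probes (0%) passed at an adjusted p under 0.05, and the lowest adjusted p was 0.256. An ordinary linear model on the same values also called 0. At an unadjusted p under 0.05 limma gave 578 probes, 5.99% of those tested, where chance gives 483 on average. Of these, 292 (3.02%) were higher and 286 (2.96%) lower at 29 ng/L. Probes are correlated, and the number at this level without any difference can fall well to either side of that average. With each array scaled to its 75th percentile in place of loess, the split was 187 higher and 313 lower.

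Most fitted differences were small. The median log2 change was 0.03 and the median absolute log2 change 0.32, while 5% of probes lay below -0.89 and 5% above 0.95. With normexp background correction of the median signal and an added offset of 50, the median absolute log2 change was 0.20. Such an offset by itself shrinks the log2 changes of dim probes. A log2 change of more than 1 in size was fitted for 769 probes (7.97%), 426 of them higher and 343 lower at 29 ng/L. A change of more than 2 was fitted for 63. The standard error had a median of 0.43 and quartiles of 0.33 and 0.58, which gave a 95% interval of about 0.90 to either side. At that standard error a probe needed a log2 change of 2.69 to pass as the only call. The 95% interval lay wholly within a 2-fold difference either way for 2854 probes (29.6%). For the other probes the interval reached past a 2-fold difference.

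**Figure D1:**
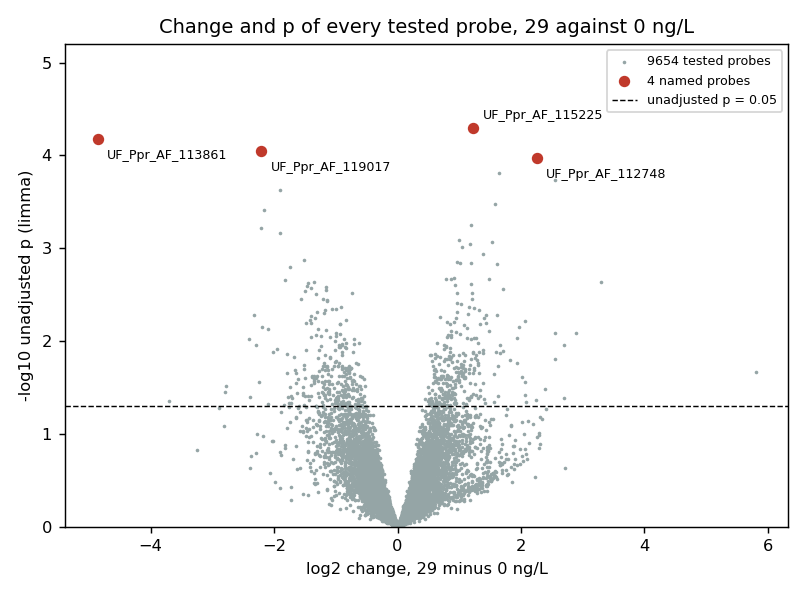
Log2 change between 29 and 0 ng/L (x axis) against -log10 of limma's unadjusted p (y axis) for the 9654 tested probes, with the 4 named probes in red and a dashed line at an unadjusted p of 0.05. Higher and lower probes are similar in number above the line (292 and 286), and no probe passed after adjustment.

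Precision depended on brightness. The tested probes were divided by mean log2 signal into 4 equal sets. In the dimmest set, with mean log2 signals between 2.90 and 5.68, the median standard error was 0.51 and the median absolute change 0.39. In the brightest set, between 9.28 and 18.64, they were 0.34 and 0.26. The share of probes at an unadjusted p under 0.05 was 6.63% in the dimmest set, 5.59% and 5.76% in the middle sets and 5.97% in the brightest.

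The probes described next had the lowest p among those higher, and among those lower, at 29 ng/L. They were picked by these p-values, so the separation of their groups is no added support. Among all 9489 probes measured on all 10 arrays, the 5 values at 29 ng/L lay entirely above the controls for 40 (0.422%) and entirely below them for 42 (0.443%). Both directions together made 82 of the 9489 probes. With arbitrary group labels, full separation in either direction has a probability of 0.00794, from 252 splits. This probability is a fraction, not a percentage, and covers both directions. It goes with the 82 of 9489 and not with either share alone. The count was not tested against it and is not read as an excess. The array names give each named probe an identifier of the form FJU, a number and C with a number, read here as the name of an assembled contig. Each of the 4 was the only probe of its contig on the array, and of all contigs with the same first number. None could be checked against a second probe.

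UF_Ppr_AF_115225, which was designed to contig FJU.1854.C1, had the lowest p of all. Its normalized log2 signal was 10.12, 10.62, 10.90, 11.03 and 10.11 at 29 ng/L, against 9.39, 9.50, 9.62, 8.93 and 9.20 in controls. The groups did not overlap, and 0.50 log2 units lay between them. The mean was 10.56 ± 0.43 at 29 ng/L and 9.33 ± 0.27 in controls (SD, n = 5 each). By limma the log2 change was 1.23 (SE 0.24, 95% interval 0.73 to 1.72), a 2.34-fold difference with an adjusted p of 0.256. The probe was well above background on all 10 arrays. Its means at 287 and 1006 ng/L were 9.66 ± 0.22 and 9.55 ± 0.27 (SD, n = 5 each), and no array of either dose reached the lowest value at 29 ng/L. That contrast uses the arrays by which the probe was picked, so it is a description.

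UF_Ppr_AF_112748, designed to contig FJU.10446.C2, had signals of 9.41, 10.21, 9.25, 9.07 and 9.19 at 29 ng/L, against 7.82, 7.13, 6.87, 7.56 and 6.47 in controls. The lowest exposed array was 1.25 log2 units above the highest control, the widest gap among the 4 probes. The means were 9.43 ± 0.45 and 7.17 ± 0.54 (SD, n = 5 each). The log2 change by limma was 2.26 (SE 0.46, 95% interval 1.28 to 3.23), or 4.77-fold, with an adjusted p of 0.256. In order of dose its mean was 7.17 at 0, 9.43 at 29, 9.67 ± 1.25 at 287 and 11.28 ± 0.47 at 1006 ng/L (SD, n = 5 each). The probe was picked by its difference between 0 and 29 ng/L. The first step, and the control level beside the other doses, are therefore a description. A trend with dose was not tested. The values at 29 ng/L lay within the range at 287 ng/L (8.51 to 11.75) and below that at 1006 ng/L (10.57 to 11.79).

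UF_Ppr_AF_113861, designed to contig FJU.13861.C1, was the lower probe with the lowest p. At 29 ng/L its log2 signal was 2.10, 6.95, 2.40, 2.15 and 5.84, against 8.77, 9.18, 7.65, 9.02 and 9.12 in controls. Only replicates 23 and 26 were well above background at 29 ng/L, while all 5 controls were. The exposed arrays thus formed a dim set of 3 and a brighter pair, and every one lay below the lowest control. The probe met the rule for testing through the controls alone, the group where it was brighter. Its p and this separation are therefore a description. The means were 3.89 ± 2.32 at 29 ng/L and 8.75 ± 0.63 in controls (SD, n = 5 each). The log2 change by limma was -4.86 (SE 0.96, 95% interval -6.87 to -2.86), with an adjusted p of 0.256. Since 3 of the 5 exposed values were not well above background, its size is set in part by the background. With normexp background correction and its offset of 50, which shrinks changes of dim probes, the log2 change by limma was -2.40 (adjusted p = 0.322). All 10 arrays at 287 and 1006 ng/L were well above background for this probe, with ranges of 4.43 to 8.43 and 4.93 to 7.76.

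UF_Ppr_AF_119017, designed to contig FJU.3840.C1, had log2 signals of 6.62, 7.76, 7.49, 8.83 and 7.13 at 29 ng/L, against 10.91, 8.86, 10.09, 9.23 and 9.77 in controls. The groups came within 0.03 log2 units of each other, between replicate 25 at 29 ng/L and control replicate 4. The means were 7.57 ± 0.83 and 9.77 ± 0.80 (SD, n = 5 each). The log2 change by limma was -2.21 (SE 0.45, 95% interval -3.14 to -1.27), a 4.61-fold difference with an adjusted p of 0.256. At 287 ng/L the mean was 7.93 ± 0.80 and at 1006 ng/L 8.45 ± 0.37 (SD, n = 5 each), with values that overlapped those at 29 ng/L. The probe was picked on the arrays at 29 and 0 ng/L, so setting other doses beside them is a description.

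**Figure D2:**
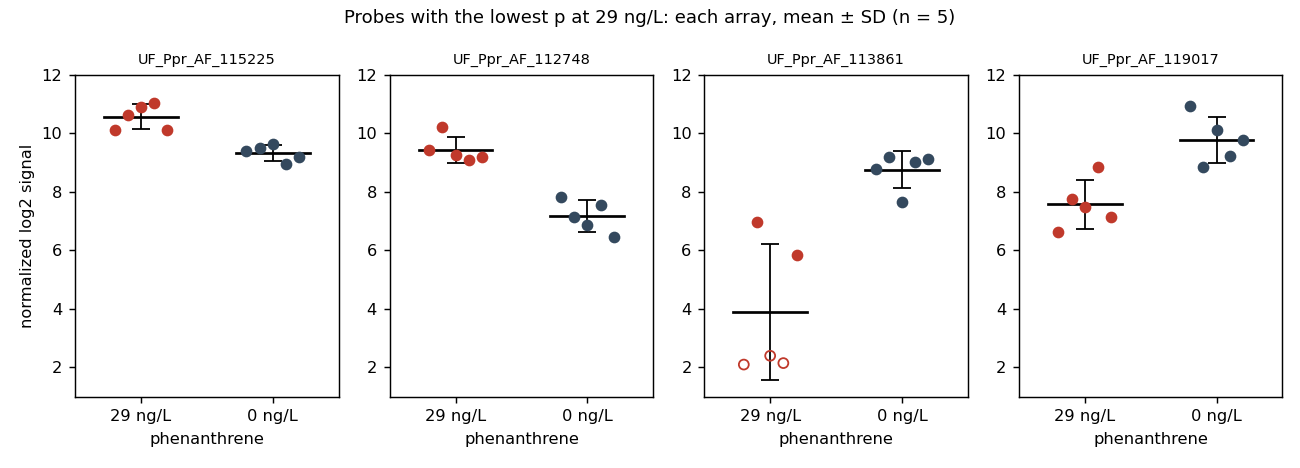
Normalized log2 signal (y axis) of the 4 named probes on each array at 29 ng/L (left, red) and 0 ng/L (right, dark blue), with the mean and SD of 5 arrays. Filled points are well above background and open points are not. The groups do not overlap for any of the 4, and UF_Ppr_AF_113861 is at 2.10 to 2.40 on 3 exposed arrays and at 5.84 and 6.95 on the other 2.

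The largest fitted change, 5.80 (SE 2.31, adjusted p = 0.808), belonged to a probe with log2 signals of 16.95, 14.83, 13.86, 13.97 and 5.29 at 29 ng/L, against 6.16, 12.10, 5.13, 4.97 and 7.53 in controls. The groups overlapped, since exposed replicate 26 was among the dim arrays and control replicate 4 among the bright ones. It was well above background on all 10 arrays, with signals of 12.10 to 16.95 on 5 of them and 4.97 to 7.53 on the other 5. Such wide ranges within a dose were found in both groups. Among tested probes 39 spanned more than 8 log2 units within the 29 ng/L arrays, 48 did so within the controls, and 11 did so in both.

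Few probes were measurable in one group and at background in the other. Of all 15208 fish probes, 7047 (46.3%) were well above background on all 10 arrays and 1674 (11.0%) on none of them. No probe was above background on all 5 arrays at 29 ng/L and on 0 controls, and none showed the opposite. At least 4 exposed arrays and at most 1 control were above background for 28 probes, and at most 1 exposed array and at least 4 controls for 6. An array at 29 ng/L had 10318 ± 1367 probes above background and a control 10132 ± 1349 (SD, n = 5 each). That difference of 186 gave p = 0.754 in an exact permutation test, two-sided, with 252 splits and a lowest attainable p of 0.00794. Its sign turned in 5 of 13 other settings.

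The 5 arrays at 29 ng/L were less alike than the 5 controls. Across tested probes the median correlation of array pairs was 0.863 within 29 ng/L (10 pairs, 0.791 to 0.944), 0.904 within the controls (10 pairs, 0.838 to 0.935) and 0.907 between the groups (25 pairs, 0.770 to 0.949). These are correlations across probes, which are no replicates, and describe how alike the arrays were. The SD of a probe over the 5 arrays had a median of 0.75 log2 units at 29 ng/L and 0.54 in controls, and was larger at 29 ng/L for 70.1% of tested probes. At 287 and 1006 ng/L the median SD was 0.54 and 0.64.

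Replicates 22 and 26 were most often at the edges of their group. Replicate 22 was the highest or the lowest of the 5 exposed arrays for 60.2% of probes and replicate 26 for 55.5%, where an equal share is 40%. For replicates 23, 24 and 25 the share was 21.0%, 37.5% and 25.8%. Without replicate 22 the median SD at 29 ng/L was 0.59, without replicate 26 it was 0.64, and without both it was 0.40, against 0.54 in controls. An SD over 3 arrays tends to have a lower median than one over 5, so the last value is not a like comparison. Replicates 22 and 26 were left out for lying at the edges, so a lower SD without them follows from that choice. The controls kept all 5 arrays in these comparisons. Without exposed replicate 26 and control replicate 6 the median SD was 0.64 at 29 ng/L and 0.49 in controls.

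Each of these arrays stood apart in its own way. Replicate 22 held 86.7% of the squared scores on the second principal component of the 10 arrays, which accounted for 22.3% of their variance. It also held 201 of the 217 spots that the scanner software had marked as outliers on these arrays, and all 8 saturated spots. Replicate 26 scored 108 on the first component, which accounted for 30.9% of the variance. The others at 29 ng/L scored between -48.0 and 18.3 there. The nearest array to replicate 26 was control replicate 6 at 53.7, and the other controls scored between -68.7 and -18.7. The components were computed over the 9489 probes with no marked spot on the 10 arrays, so the marked spots did not enter these scores. What set replicate 22 apart on the remaining probes was not tested.

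**Figure D3:**
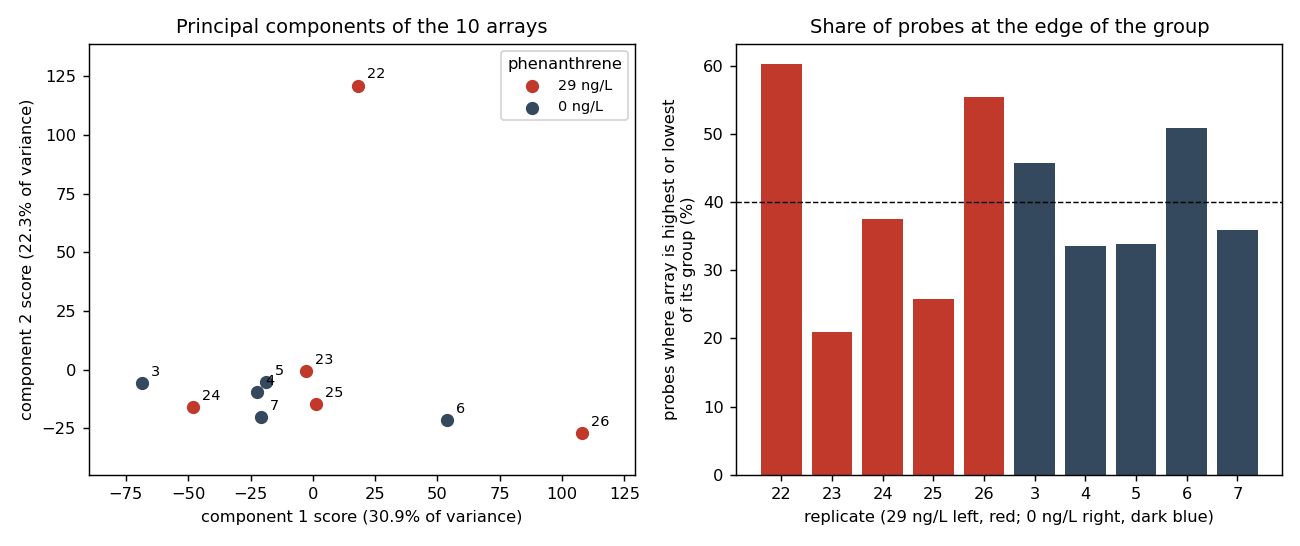
Left, scores of the 5 arrays at 29 ng/L (red) and the 5 at 0 ng/L (dark blue) on the first 2 principal components (30.9% and 22.3% of variance), labelled by replicate. Right, the share of tested probes (%) for which an array was the highest or lowest of its group, with a dashed line at the equal share of 40%. Replicate 22 stands apart on component 2 and replicate 26 on component 1, and they are at an edge for 60.2% and 55.5% of probes.

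The deviation of replicate 26 from its group was partly shared with arrays of other doses. Its difference from the mean of the other 4 exposed arrays exceeded 2-fold for 3788 probes (39.3%). Control replicate 6 differed from its own group by over 2-fold for 2535 of the probes measured in both, and 1341 of them were shared with replicate 26 in the same direction. These were 35.4% of the list of replicate 26 and 52.9% of that of control replicate 6, and 197 further probes were in both lists with opposite signs. Over all tested probes control replicate 6 was over 2-fold in either direction for 26.3% and replicate 26 for 39.3%. The overlap was not tested against these shares. Across probes the deviations of these 2 arrays correlated at r = 0.55, with no array in common. They were on different slides, 4 and 2, and in different scan sessions. Replicate 26 had 12278 probes above background, the highest of the 10 arrays, and control replicate 6 had 8781, the second lowest.

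Some arrays at 287 and 1006 ng/L deviated in the same direction as replicate 26, and others in the opposite direction. Correlations with replicate 26 were 0.565 for 287 ng/L replicate 35, 0.502 for 1006 ng/L replicate 44 and 0.611 for 1006 ng/L replicate 45. They were -0.497 for 287 ng/L replicate 38, -0.404 for 1006 ng/L replicate 42 and -0.562 for 1006 ng/L replicate 46. Deviations from the other arrays of a group sum to 0 within it, so each group must hold both signs. The positive and the negative values are therefore not separate observations, and both are given as a description. No array outside 29 ng/L deviated with replicate 22, for which the correlations ran from -0.122 to 0.114. All arrays were normalized together, which these values share.

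**Figure D4:**
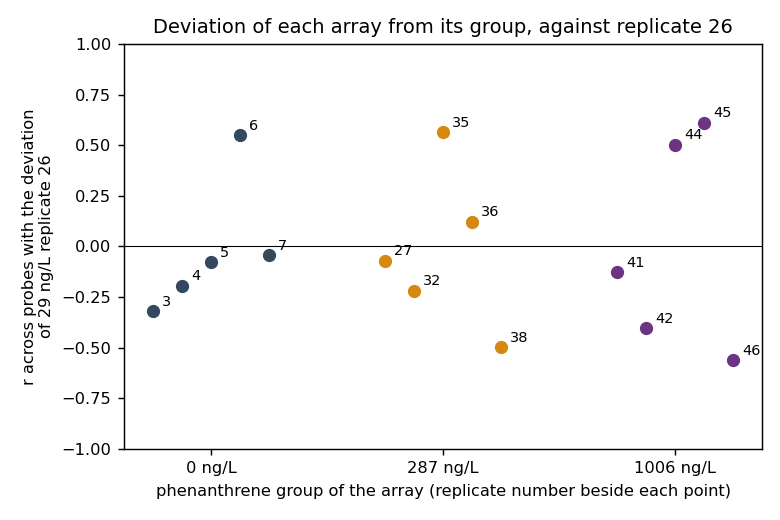
Correlation across tested probes (y axis) between the deviation of 29 ng/L replicate 26 from the other 4 arrays of its dose and the deviation of each array at 0, 287 and 1006 ng/L (x axis) from the others of its own group. Points are single arrays with their replicate numbers, and 1 or 2 arrays of each group lie at 0.502 to 0.611, while both signs occur in each group by construction.

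The 2 slides that held both groups gave separate readings of the comparison, with no array in common. Slide 3 carried exposed replicates 22 and 24 and control replicates 3 and 7, and slide 4 exposed replicates 23 and 26 and control replicates 4 and 5. Exposed replicate 25 and control replicate 6 were on slides 5 and 2, and both were scanned in the second session. Across 9654 probes the differences between 29 and 0 ng/L correlated at r = 0.169 between slides 3 and 4, and 54.8% of probes had the same direction on both. The difference between replicate 25 and control replicate 6 correlated at -0.0370 with slide 3 and at -0.347 with slide 4, over 9653 probes. With replicates 22 and 26 left out, slides 3 and 4 correlated at 0.105, with 54.3% of probes in the same direction. With only replicate 22 left out the correlation was -0.00633, and with only replicate 26 left out it was 0.189. All arrays were normalized together, and no p is given for these correlations. With slide as a fixed block in limma 0 probes passed and 754 were at an unadjusted p under 0.05, 363 higher and 391 lower at 29 ng/L. That fit could draw no dose difference from exposed replicate 25, the only array on slide 5. Control replicate 6 shared slide 2 only with 1006 ng/L replicate 46. The count is therefore not one of 5 arrays against 5. With slide as a random block 0 passed and 554 were under 0.05.

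Probes with low p on one slide alone were followed to the other. On slide 3 alone 554 probes (5.74%) were at an unadjusted p under 0.05 by limma, and 335 of them, or 60.5%, had the same direction on slide 4. On slide 4 alone there were 371 (3.84%), and 253 of them, or 68.2%, had the same direction on slide 3. Both shares stand beside 54.8% for all tested probes, and they were not tested against it. Of the 9654 tested probes, 32 were under 0.05 on both slides, 28 of them in the same direction. That overlap was not compared with what chance gives for shares of 5.74% and 3.84%.

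All 4 named probes kept their direction in each of these readings. UF_Ppr_AF_115225 was higher at 29 ng/L by 1.22 log2 units on slide 3 and 0.81 on slide 4, and by 2.10 in replicate 25 over control replicate 6. For UF_Ppr_AF_112748 the differences were 2.19, 2.70 and 1.51 in the same order. UF_Ppr_AF_113861 differed by -2.02 on slide 4, which held both exposed arrays on which it was well above background. It was also lower on slide 3 and in the remaining pair, where the exposed arrays were not well above background and no size is given. UF_Ppr_AF_119017 differed by -3.28 on slide 3, -2.03 on slide 4 and -0.41 in the remaining pair. The probes were picked on all these arrays and their groups did not overlap, so this agreement was fixed beforehand and is a description. Within slide 3 alone limma's adjusted p was 0.0979 for UF_Ppr_AF_113861 and at least 0.785 for the other 3, and within slide 4 alone it was 0.789 for all 4.

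**Figure D5:**
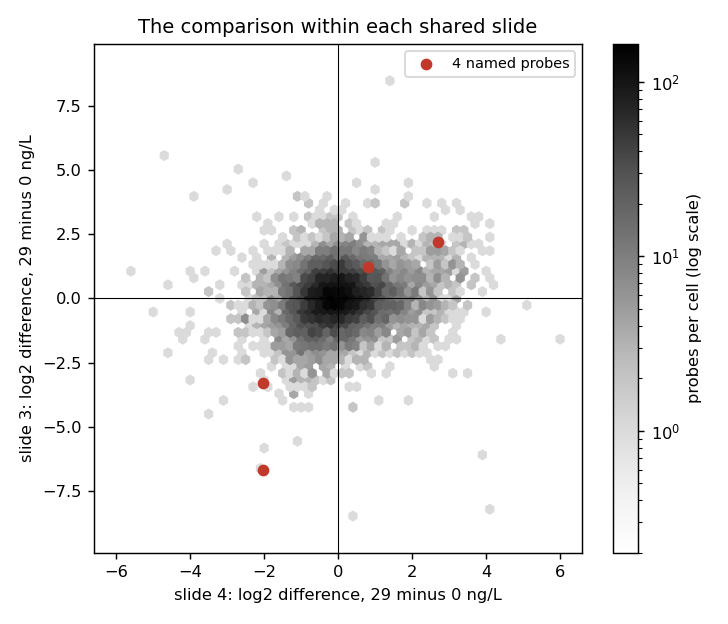
Log2 difference between 29 and 0 ng/L on slide 4 (x axis) and on slide 3 (y axis), each from 2 exposed and 2 control arrays; darker cells hold more probes, on a log scale. The cloud is nearly round (r = 0.169), and the 4 named probes, in red, have the same sign on both slides, the lowest on the y axis being UF_Ppr_AF_113861, not well above background in the exposed arrays of slide 3.

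Counts of higher and lower probes were also taken by the class of the array name. Of probes with FJU contig names, 7752 of 11246 were tested. Those named gi and a number were 1433 tested of 3309 and were dimmer, with a median log2 signal of 6.04 beside 7.46 over all tested probes. Among contig probes 255 (3.29%) were higher and 208 (2.68%) lower at an unadjusted p under 0.05. Among gi probes 29 (2.02%) were higher and 63 (4.40%) lower, beside 3.02% and 2.96% over all. The median log2 change was 0.049 for contig probes, -0.091 for gi probes and 0.029 over all. Without 29 ng/L replicate 26 the gi probes divided into 38 higher and 38 lower, with a median of -0.022. All tested probes then divided into 317 higher and 227 lower, with a median of 0.014. The other arrays were not left out in turn for this split. Of 437 tested probes of the class FJU_SB, 8 were higher and 15 lower, and without replicate 26 the numbers were 12 and 10. Of 32 tested probes in the class nd, 0 were either.

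Pairs of probes to the same contig were only weakly alike. The array held 709 contigs with a pair of probes, and for 146 of them both were tested. Across those 146 contigs the log2 changes of the pair correlated at r = 0.210, and 83 (56.8%) had the same direction. The pair's signals over the 20 arrays correlated at a median of 0.277. In 1 contig both probes were at an unadjusted p under 0.05, with the same direction, and in 14 contigs 1 probe was. Whether the probes of a pair read the same RNA was not tested. They were measured on the same arrays, so they are not replicates of the exposure.

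The authors' deposited values gave a similar picture. Fitted in the same way, they gave 541 probes at an unadjusted p under 0.05, of which 510 were among the 578, and 0 after adjustment. The log2 changes from both sources correlated at 0.987 across tested probes, and 96.7% had the same direction.

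In 3 settings a probe went past the threshold. Without 287 ng/L replicate 27 UF_Ppr_AF_112748 was the only probe called (adjusted p = 0.0189). That array is in neither group, though it was normalized together with the others. Leaving it out altered the estimate of spread, while the log2 change stayed at 2.26. Its value of the probe, 11.75, was the highest at its dose. With arrays weighted by limma's array weights, UF_Ppr_AF_115225 was the only call (log2 change 1.38, adjusted p = 0.0125). The weights of replicates 22 and 26 were then 0.242 and 0.393, against 1.09 to 2.19 for the other exposed arrays. Leaving out both of these arrays also left UF_Ppr_AF_115225 as the only call (log2 change 1.52, adjusted p = 0.0481). Replicates 22 and 26 held the lowest values of this probe at 29 ng/L, 10.12 and 10.11, against 10.62 to 11.03 on the others. Giving them less or no weight thus raised its log2 change by construction, and these settings are not separate support. With all arrays at equal weight neither probe passed.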

How the data were processed

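RNA abundance was measured on 20 Agilent one-colour arrays in 4 dose groups of 5. Each array was deposited as scanner output from Agilent Feature Extraction 10.7.1.1, per the file headers, and its column of processed intensity, a linear signal, was used. The authors also deposited log2 values that the titles call loess normalized; the labels give no settings. Each column at 29 and 0 ng/L correlated with its own array at 0.994 or more, so higher was taken as brighter. Their medians ran from 5.45 to 5.60 at 29 ng/L and from 5.45 to 5.51 in controls. That table's 1 column of no sample was not used.

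In R 4.3.3 with limma 3.58.1, the 536 control spots were left out, marked outlier spots were set to missing, saturated spots were kept, and log2 processed signals were normalized by cyclic loess. All 20 arrays entered 1 fit (lmFit, eBayes) with a coefficient per dose, for a shared estimate of spread. Such a fit takes the spread of a probe as equal in all groups. The median SD was larger at 29 ng/L (0.75) than at the other doses (0.54 to 0.64). Tests were two-sided, with Benjamini-Hochberg adjustment over the 9654 tested probes. Precision is limited by having 5 arrays a group and, for dim probes, by brightness over background. The fit was tested on simulated data with independent normal noise and an equal spread of a probe on all arrays. Correlated probes, a wider spread at 29 ng/L and single deviating arrays were not simulated. The simulation therefore does not settle how the p-values behave on these arrays.

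The comparison, the gene lists and the naming rule were chosen with earlier results of these data known. The rule named the probes with the lowest p, 2 higher and 2 lower. No planned gene list could be used, as no gene name could be tied to a probe. Slide and scan session came from the file headers.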

Additional observations from a re-analysis of the deposited data

Results flagged for a closer look

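Dixon's ratio was computed for 22 sets of values, each over 5 arrays, and passed its critical value in 4, where chance gives about 1 in 20, or 5%. That share is for independent normal values. Counts of marked spots and scores on a component led by 1 array are not such values, so 4 of 22 shows no excess by itself. Replicate 22 at 29 ng/L had 201 marked outlier spots, while its group's remaining arrays had 0 to 5. Control replicate 4 had 7, while the remaining controls had 0 to 2. On the second principal component 29 ng/L replicate 22 scored 121, and the other exposed arrays scored -27.0 to -0.58. For UF_Ppr_AF_113861 control replicate 5 had a log2 signal of 7.65, below the other controls at 8.77 to 9.18 and above all 5 arrays at 29 ng/L. These values are given without an explanation.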

How the results depend on the processing

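No paired analysis was possible because the groups share no replicate numbers. Slide as a fixed or a random block gave 0 calls, though the fixed block drew no dose difference from exposed replicate 25. Of 39 alternatives, 36 called 0 probes as with the reported setting, and 3 called 1 probe: array weights, the fit without 287 ng/L replicate 27, and the fit without exposed replicates 22 and 26. Without any 1 array the count was thus 0 to 1. The number at an unadjusted p under 0.05 was 578 and ran from 425 to 862 without any 1 array. It was 436 with the 10 arrays at 29 and 0 ng/L alone, 371 within slide 4 and 341 without exposed replicates 22 and 26. The median absolute log2 change, 0.322, was 0.199 with normexp, 0.559 within slide 3 and 0.504 within slide 4, and lay between 0.271 and 0.390 otherwise. Counts of probes whose groups do not overlap grow by construction with fewer arrays. The count was 82, and 82 to 207 without any 1 array, 374 without exposed replicates 22 and 26, 355 without exposed replicate 26 and control replicate 6 (chosen after seeing the data), 3065 within slide 3 and 3663 within slide 4. The difference of 186 probes above background turned negative in 5 of 13 settings. It was -33.6 for probes positive and significant, -304 without exposed replicate 26, -151.7 and -166.5 without control replicates 6 and 7, and -1240 within slide 3. None of these had a p under 0.05 by the exact permutation test. Within a slide, 2 arrays against 2 could not give such a p, so that test decides nothing there. Without any 1 array the difference ran from -304 to 602. The 4 named probes kept their direction in every setting that gave them a value. Their groups did not overlap, so leaving out arrays or using a single slide could not turn it. The probes were also picked on these arrays, so the kept direction is no added support. Their adjusted p ran from 0.0125 to 0.923 for UF_Ppr_AF_115225, 0.0189 to 0.793 for UF_Ppr_AF_112748, 0.0589 to 0.805 for UF_Ppr_AF_113861 and 0.154 to 1 for UF_Ppr_AF_119017. With the 10 arrays at 29 and 0 ng/L alone, limma's adjusted p was 0.923, 0.324, 0.805 and 0.923 for the probes in that order. UF_Ppr_AF_113861 was not tested where all 10 arrays had to be above background. The causes of these changes were not tested.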
